A study of Mus musculus with 33 samples.

Results

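The tumors of PTHrP KO mice were followed from week 8 to week 12. Of the 33 RNAseq libraries of the series, 9 came from KO tumors, 3 at each of weeks 8, 10 and 12, with 1 library per mouse. They were selected by genotype, tissue and age in the sample labels. The 3 tumors of week 12 were compared with the 3 of week 8, and week 10 served as the stage between them. In the study's staging of KO mice these ages stand for hyperplasia, adenoma and carcinoma.

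All KO tumor mice carried the MMTV-PyMT transgene, Cre driven by the MMTV promoter, Pthrp flox/flox alleles and the mTmG reporter. The MMTV promoter is active mainly in mammary epithelium, so Pthrp deletion and the switch of the reporter from mTd to GFP depended on where and when it was active. WT tumors (3 mice at week 6 and 3 at week 10) had the same transgenes with Pthrp wt/wt alleles. KO glands (2 mice at week 8 and 2 at week 12) had the KO alleles, Cre and the reporter but no PyMT. In all groups the digested tissue was kept in culture briefly and GFP+ cells were then sorted, so the values describe sorted, briefly cultured cells and not the whole tumor. In such bulk samples fewer cells of a type and less RNA per cell cannot be told apart.

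PyMT, the middle T antigen of polyomavirus, assembles Src family kinases, PI3K and Shc at the cell membrane and drives multifocal mammary tumors that pass from hyperplasia to adenoma and invasive carcinoma. PTHrP, encoded by Pthlh, is a secreted peptide that signals through Pth1r and is best known for its roles in mammary development, lactation and cancer in bone. Advancing tumors of this model commonly show more proliferation, loss of the myoepithelial layer and a metabolism adapted to low oxygen, and the gene lists below were chosen to cover these themes.

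Counted reads ranged from 37061389 to 80187304 (median 46516985) in the 9 KO tumors. The share of reads on ribosomal RNA (rRNA) genes, which the depletion step should remove, was uneven. In 3 tumors, replicate 1 of week 8, replicate 1 of week 10 and replicate 3 of week 12, it was at most 0.00572%. In the other 6 it ran from 0.743% to 12%. At week 8 it was 0.00572%, 12% and 3.62% in replicates 1, 2 and 3. At week 10 it was 0.0045%, 2.51% and 2.06%. At week 12 it was 0.743%, 0.952% and 0.00331%. Reads on mitochondrial genes moved with it, at 1.79%, 1.24% and 1.86% in the 3 tumors of low rRNA share and at 3.32% to 8.87% in the others. Each week therefore held 1 tumor of low rRNA share, and the highest share among the tumors belonged to week 8. Lars2, a mitochondrial tRNA synthetase gene, was counted at 7.39, 45300 and 19700 CPM (counts scaled to library size) at week 8 and at 6050, 6720 and 6.83 CPM at week 12, high in the tumors of high rRNA share and low in the others.

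Libraries of one week were not the most alike. Log2 CPM of 9779 genes was centred on its mean over the 9 tumors and correlated across genes, as a description in which genes are not independent replicates. The closest pair was replicate 1 of week 8 with replicate 1 of week 10 (r = 0.76), both of low rRNA share. Of 528 pairs among all 33 libraries this pair had the largest share of genes within 25% of each other (after adding 0.5 CPM), 88.3% of 13324 genes, and replicates 2 and 3 of week 8 came next with 87.7%. Replicate 1 of week 8 had only 60% and 60.1% of genes within 25% of replicates 2 and 3. The 2 libraries of the closest pair still differed beyond counting noise (chi-square of 28.2 per degree of freedom, the lowest of the 36 pairs of KO tumors), which does not tell 2 mice from 2 preparations of 1. They were kept as the labels give them, as mice of different weeks, and whether a label or a preparation batch differs for this pair was not tested, although every comparison with week 8 would change with it. At week 12 replicate 1 was unlike the other tumors (r between -0.49 and -0.03). Values without replicate 1 of week 8 or without the tumors of low rRNA share are given beside many of the results below.

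**Figure D1:**
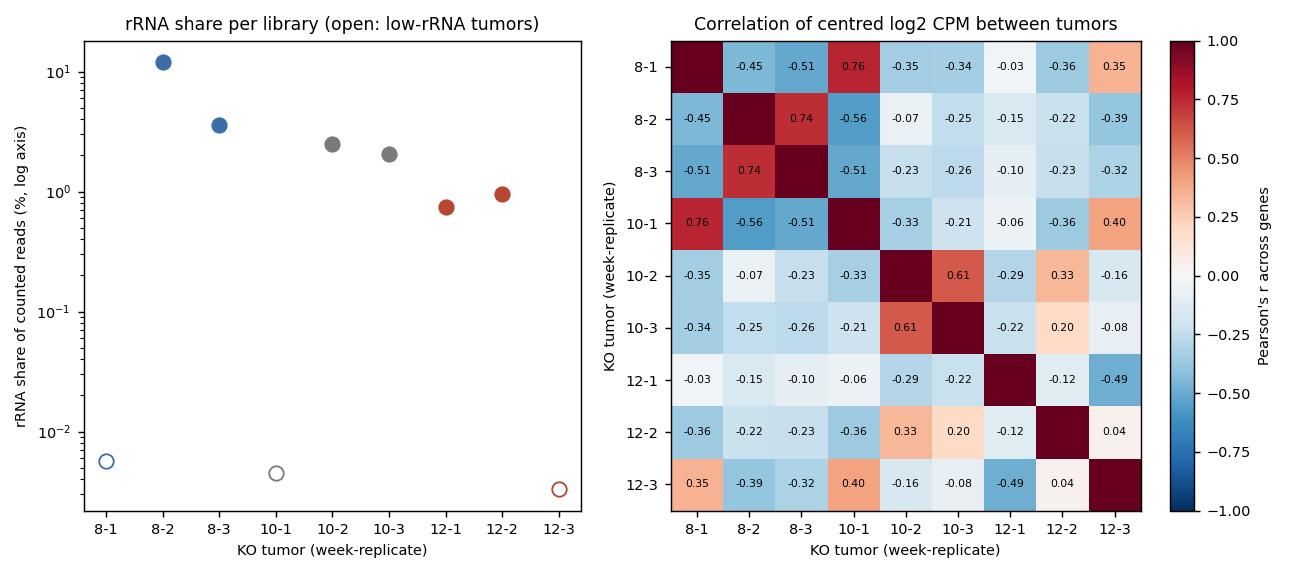
rRNA share and likeness of the 9 KO tumors, named by week and replicate. The left plot gives the percent of counted reads on rRNA genes on a log axis (open points, the 3 tumors at or under 0.00572%), and the right plot gives Pearson's r of centred log2 CPM across 9779 genes. Tumor 8-1 lies with 10-1 (r = 0.76) while 8-2 lies with 8-3 (r = 0.74).

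The targeted gene did not separate the weeks. Pthlh was at 1.89, 1.51 and 1.64 CPM at week 8, at 2.29, 1.51 and 1.64 CPM at week 10 and at 2.13, 1.35 and 1.8 CPM at week 12, and the log2 difference between weeks 12 and 8 was 0.07 ± 0.38 (SE, adjusted p = 1 in edgeR). The range over the 9 KO tumors (1.35 to 2.29 CPM) overlapped that of the 6 WT tumors of weeks 6 and 10 (1.46 to 6.67 CPM, median 2.67), and a count over the whole gene does not separate its deleted part from the rest. The paper reports that no KO sample had reads over the floxed exon. The PyMT row had 323 to 3217 reads in the KO tumors and 0 in all 14 glands of the series. Scaled to library size it was at 8.7, 9.24 and 14.6 CPM at week 8 and at 4.71, 67.9 and 34.1 CPM at week 12, so replicate 1 of week 12 lay below every tumor of week 8 and the other 2 above. GFP reads of the sorted cells were between 378 and 908 CPM, and reads of the tdTomato row, the reporter before Cre acts, were present in all 9 tumors at 77.9 to 143 CPM.

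Epithelial markers were high in every tumor. Krt8, a luminal keratin, had 3210, 2210 and 2380 CPM at week 8 and 4390, 2500 and 2660 CPM at week 12. Epcam, an epithelial adhesion molecule, had 801, 590 and 588 CPM and 773, 630 and 761 CPM at these weeks. The 10 markers of lymphocytes summed to 1.11 to 1.44 CPM at week 12 and 1.32 to 1.42 CPM at week 8, and those of macrophages to 9.27 to 9.88 and 11.7 to 17 CPM. Fibroblast markers summed to 83 to 457 CPM at week 12 and 296 to 1100 CPM at week 8, with Postn, a matrix protein, as the most variable of those named (71.4, 284 and 413 CPM against 1050, 382 and 274 CPM). The median log2 differences between weeks 12 and 8 were 0.11 for fibroblast, -0.24 for adipocyte, -0.82 for macrophage, -0.65 for lymphocyte, -0.61 for endothelial, -0.18 for skeletal muscle, -2.09 for erythroid and -0.61 for neutrophil markers, and none of these markers was a DEG in edgeR. In the fibroblast list 2 markers, and in the other lists at least 4, averaged under 1 CPM, where such medians rest on few reads.

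Differentially expressed genes (DEGs) were defined by a fold change over 1.5 and an adjusted p under 0.1. Between week 12 and week 8 edgeR found 0 DEGs among 36527 genes tested (0%), with 2878 genes at an unadjusted p under 0.05 (996 higher and 1882 lower at week 12, or 2.73% and 5.15% of genes). DESeq2 in the same design found 125 DEGs, 60 higher and 65 lower, which is 0.718% of the 17400 genes to which it gave an adjusted p. Without replicate 1 of week 8 edgeR found 214 DEGs, 95 higher and 119 lower (0.263% and 0.329% of genes), and 72 of them were among the 125 of DESeq2. Without the 3 tumors of low rRNA share edgeR found 169 DEGs, 127 of them shared with the 214. In the tumors kept for that fit rRNA share fell with week. It was 12% and 3.62% at week 8, 2.51% and 2.06% at week 10 and 0.743% and 0.952% at week 12. Week and rRNA share therefore cannot be told apart in any result of that fit. Both fits left out replicate 1 of week 8, so their shared DEGs are not independent. Leaving out any other tumor of week 8 or 12 gave 0 DEGs in edgeR, except replicate 1 of week 12, without which there were 5.

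**Figure D2:**
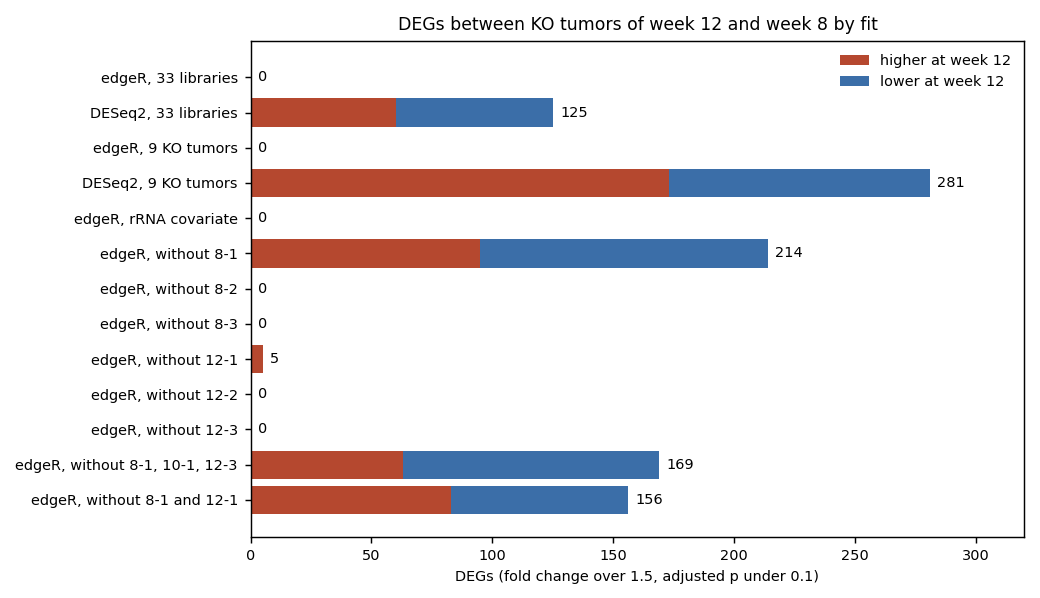
Number of DEGs between KO tumors of week 12 and week 8 (fold change over 1.5, adjusted p under 0.1) by fit, with genes higher at week 12 in red and lower in blue. Tumors left out are named by week and replicate. edgeR gave 0 DEGs with all libraries and 214 without tumor 8-1.

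Replicate 1 of week 8 lay with the later tumors in most genes, these included. Of the 214 DEGs found without it, 194 were at a mean of 1 CPM or more. In 187 of these 194 replicate 1 of week 8 was nearer to the mean of weeks 10 and 12 than to that of its 2 companions, which is 96.4% of them against 71.5% of all 13149 genes at 1 CPM or more. These genes were found by setting its companions against the later tumors, so the first share describes them only. It was within 25% of replicate 1 of week 10 in 87.6% of the 194 and in 88.8% of all genes, and inside the range of weeks 10 and 12 in 75.8% and 78.1%, so by these measures the 194 genes were like the rest. Its rRNA and mitochondrial shares were also the low ones of week 8, and the part of these shares in its place among the tumors was not tested.

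The 20 genes with a gene name described next are the 10 with the lowest p in each direction among genes at 1 CPM or more and at a fold change over 1.5. None was a DEG in edgeR with all libraries (adjusted p = 0.141 for Olfm1 and 0.442 for the other 19). All 20 were DEGs in DESeq2, 16 were DEGs in edgeR without replicate 1 of week 8, and 15 without the 3 tumors of low rRNA share. In 14 of the 20 the values of week 12 and week 8 did not overlap, against a background of 3.58% of all genes with every tumor of week 12 above week 8 and 6.81% with every tumor below. These genes were taken by their p in the same comparison, so the count describes them and tests nothing.

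Car9 and Pfkl, 2 members of the glycolysis and hypoxia list, were among the 10 higher at week 12. Car9 (GRCm38 chr4:43506966-43513729, plus strand) encodes carbonic anhydrase IX, a membrane enzyme of pH control that is a standard target of hypoxia-inducible factors. Pfkl (GRCm38 chr10:77986947-78010083, minus strand) encodes the liver type of phosphofructokinase, which commits glucose to glycolysis. Their RefSeq promoter windows (GRCm38.p6, 250 bases before to 50 after the start, 1 start each, plus strand for Car9 at chr4:43506776-43507075 and minus strand for Pfkl at chr10:78009758-78010057) are shown because hypoxia-inducible factors bind short motifs with these letters. Capitals mark ACGTG or GCGTG on either strand, which 43.8% of 32851 mouse promoter windows of this length hold, so a match is a description and not a site.
Car9: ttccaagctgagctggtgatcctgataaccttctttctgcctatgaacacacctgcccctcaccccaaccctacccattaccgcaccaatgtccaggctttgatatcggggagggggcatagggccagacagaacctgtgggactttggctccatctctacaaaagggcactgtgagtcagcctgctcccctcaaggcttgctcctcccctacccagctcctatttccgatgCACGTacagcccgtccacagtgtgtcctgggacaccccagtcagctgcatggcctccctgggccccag
Pfkl: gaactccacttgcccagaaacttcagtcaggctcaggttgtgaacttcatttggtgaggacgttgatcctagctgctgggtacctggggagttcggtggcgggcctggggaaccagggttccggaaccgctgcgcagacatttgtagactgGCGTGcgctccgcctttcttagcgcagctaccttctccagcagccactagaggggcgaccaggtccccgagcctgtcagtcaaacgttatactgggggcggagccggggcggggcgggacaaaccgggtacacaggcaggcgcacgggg

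Car9 was at 5.9, 3.65 and 5.57 CPM at week 8, at 6.32, 14 and 11.9 CPM at week 10 and at 17, 23.9 and 11.7 CPM at week 12. Every tumor of week 12 lay above every tumor of week 8, and week 10 was split between its low-rRNA tumor, near week 8, and the other 2. The log2 difference between weeks 12 and 8 was 1.8 ± 0.42 (SE, n = 3 and 3, adjusted p = 0.442 in edgeR and 0.0234 in DESeq2). Between the low-rRNA tumors of week 12 and week 8 it was 0.93, without the 3 low-rRNA tumors 2.15 (adjusted p = 0.0772 in edgeR).

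Pfkl was at 201, 138 and 151 CPM at week 8, at 208, 270 and 335 CPM at week 10 and at 221, 321 and 348 CPM at week 12. The groups did not overlap, although the lowest tumor of week 12 was close to the highest of week 8. The log2 difference was 0.86 ± 0.2 (adjusted p = 0.442 in edgeR, 0.0303 in DESeq2 and 0.0471 in edgeR without replicate 1 of week 8). Without the 3 low-rRNA tumors it was 0.91 and Pfkl was no DEG (adjusted p = 0.102 in edgeR), and it was 0.79 between the low-rRNA tumors.

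Nipsnap1 and Impa2 belong to metabolism as well. Nipsnap1, a mitochondrial protein linked to mitophagy, was at 37.3, 24 and 21.8 CPM at week 8 and at 42, 78.9 and 43.6 CPM at week 12 (log2 difference 0.98 ± 0.22). Impa2, an inositol monophosphatase, was at 9.96, 6.89 and 7.5 CPM and at 14.2, 17.7 and 13.3 CPM (0.89 ± 0.2). In both genes the weeks did not overlap, and without replicate 1 of week 8 both were higher at week 12 as DEGs in edgeR (adjusted p = 0.0165 and 0.0444). Between the low-rRNA tumors their log2 differences were smaller, 0.22 for Nipsnap1 and 0.39 for Impa2.

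The other genes higher at week 12 act in signalling, in the matrix or as regulators. Adamts1 (GRCm38 chr16:85793827-85803113, minus strand), a secreted protease that cleaves proteoglycans, was at 50.5, 50.1 and 79.7 CPM at week 8, at 93.7, 58.4 and 58.1 CPM at week 10 and at 306, 170 and 110 CPM at week 12. Every tumor of week 12 lay above both earlier weeks, with a wide range within week 12 (log2 difference 1.7 ± 0.41, adjusted p = 0.0297 in DESeq2). It was no DEG in edgeR without replicate 1 of week 8 (adjusted p = 0.171) or without the low-rRNA tumors (adjusted p = 0.113). Apln, the peptide ligand of the apelin receptor, was low, at 0.844, 0.546 and 0.868 CPM and then 1.65, 2.53 and 3.43 CPM (1.75 ± 0.43). In the same 2 fits Apln had adjusted p of 0.133 and 0.242.

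Frk, a Src family tyrosine kinase, was at 72.2, 47.6 and 41.1 CPM at week 8 and at 69.4, 108 and 91.8 CPM at week 12, with overlap through replicate 1 of each week. Its log2 difference was 0.74 ± 0.18 with all tumors (adjusted p = 0.442 in edgeR), 1.02 without replicate 1 of week 8 (adjusted p = 0.00987) and 0.35 between the low-rRNA tumors. Cdr2l, a cytoplasmic protein of the cerebellar degeneration-related family, was at 6.48 to 11.1 CPM at week 8 and 12.1 to 18.6 CPM at week 12 (0.79 ± 0.19, adjusted p = 0.0255 in edgeR without replicate 1 of week 8). Peg10, an imprinted gene derived from a retrotransposon, was at 0.155, 0.357 and 0.338 CPM at week 8 and at 0.656, 2.13 and 7.7 CPM at week 12 (3.66 ± 0.9, adjusted p = 0.0303 in DESeq2), without overlap. Peg10 was no DEG in edgeR without replicate 1 of week 8 (adjusted p = 0.203) or without the low-rRNA tumors (log2 difference 1.99, adjusted p = 0.38).

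Pparg (GRCm38 chr6:115360951-115490399, plus strand), a nuclear receptor that drives lipid storage genes, had the largest log2 difference of the 10 after Peg10, 3.41 ± 0.74. It was at 0.547, 0.588 and 0.675 CPM at week 8, at 0.556, 0.589 and 0.459 CPM at week 10 and at 0.365, 15.5 and 3.41 CPM at week 12. The difference rested on replicates 2 and 3 of week 12, 1 of them of low rRNA share, while replicate 1 of week 12 was the lowest of all 9 tumors. Without that replicate Pparg was a DEG in edgeR at a log2 difference of 3.97 (adjusted p = 0.00431), and with it, without replicate 1 of week 8, it was not (adjusted p = 0.12).

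Among the 10 genes lower at week 12, Olfm1 (GRCm38 chr2:28192992-28230736, plus strand), a secreted glycoprotein best known from neurons, had the lowest p of all genes. It was at 1.47, 7.27 and 7.69 CPM at week 8, at 0.988, 0.691 and 0.631 CPM at week 10 and at 0.51, 0.992 and 0.68 CPM at week 12. Replicates 2 and 3 of week 8 stood far above all other tumors and replicate 1 of week 8 lay just above week 12. The log2 difference was -2.91 ± 0.5 (adjusted p = 0.141 in edgeR and 3.94e-05 in DESeq2) with all tumors and -3.37 without replicate 1 of week 8 (adjusted p = 0.00139 in edgeR). Between the low-rRNA tumors it was -0.74.

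Several of the genes lower at week 12 encode transporters and channels. Slc7a8, an exchanger of neutral amino acids, was at 2.81, 6.66 and 2.72 CPM at week 8 and at 0.437, 0.422 and 1.33 CPM at week 12, without overlap (log2 difference -2.45 ± 0.54). Slc22a15, an organic cation transporter, was at 13.8, 21.6 and 19.9 CPM and at 12.2, 10.2 and 11.5 CPM (-0.7 ± 0.16). Slco4a1, an organic anion transporter of thyroid hormone, was at 0.808, 10.9 and 15.4 CPM and at 1.81, 1.46 and 0.93 CPM (-2.68 ± 0.64).

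In Slco4a1 replicate 1 of week 8 was lower than every tumor of week 12, and replicates 2 and 3 of week 8 were far above all other tumors. Mcoln3, a cation channel of endosomes and lysosomes, was at 2.25, 6.8 and 14.6 CPM at week 8 and at 1.15, 0.802 and 1.6 CPM at week 12, without overlap (-2.72 ± 0.63). All 4 transport genes were DEGs in edgeR without replicate 1 of week 8 (adjusted p = 0.0471 for Slc7a8, 0.0114 for Slc22a15, 0.00462 for Slco4a1 and 0.027 for Mcoln3).

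The remaining genes lower at week 12 were signalling genes and an imprinted gene. Prkd1, a kinase activated by diacylglycerol, was at 60.6, 102 and 99.7 CPM at week 8, at 62.2, 63.7 and 64.2 CPM at week 10 and at 49.8, 43 and 45.3 CPM at week 12 (log2 difference -0.93 ± 0.22). Week 12 lay below both earlier weeks, and the low-rRNA tumor of week 8 was at the level of week 10. Gprc5b, an orphan receptor, was at 19.3, 28.4 and 25.7 CPM, then 14.6, 12.6 and 12.1 CPM, then 7.73, 8.74 and 11.6 CPM (-1.38 ± 0.31), lower at each later week and without overlap between neighbouring weeks. Prkd1 and Gprc5b were DEGs in edgeR without replicate 1 of week 8 (adjusted p = 0.0261 and 0.0536).

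Peg3 (GRCm38 chr7:6703892-6730431, minus strand), a paternally expressed zinc finger gene, was at 236, 881 and 994 CPM at week 8, at 221, 208 and 219 CPM at week 10 and at 211, 149 and 269 CPM at week 12. Replicate 1 of week 8 lay within the range of week 12 (-1.75 ± 0.39 with it and -2.16 without it, adjusted p = 0.442 and 0.00462 in edgeR). Ndrg4, of the NDRG family, was at 14.1, 58 and 82.2 CPM at week 8 and at 14.9, 6.84 and 10.1 CPM at week 12, and Klrg2, a lectin-like receptor, at 5.97, 25.2 and 28.6 CPM and at 7.92, 4.98 and 7.11 CPM. Both showed the same split of week 8 and both were DEGs without its replicate 1 (adjusted p = 0.00987 and 0.00332 in edgeR).

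**Figure D3:**
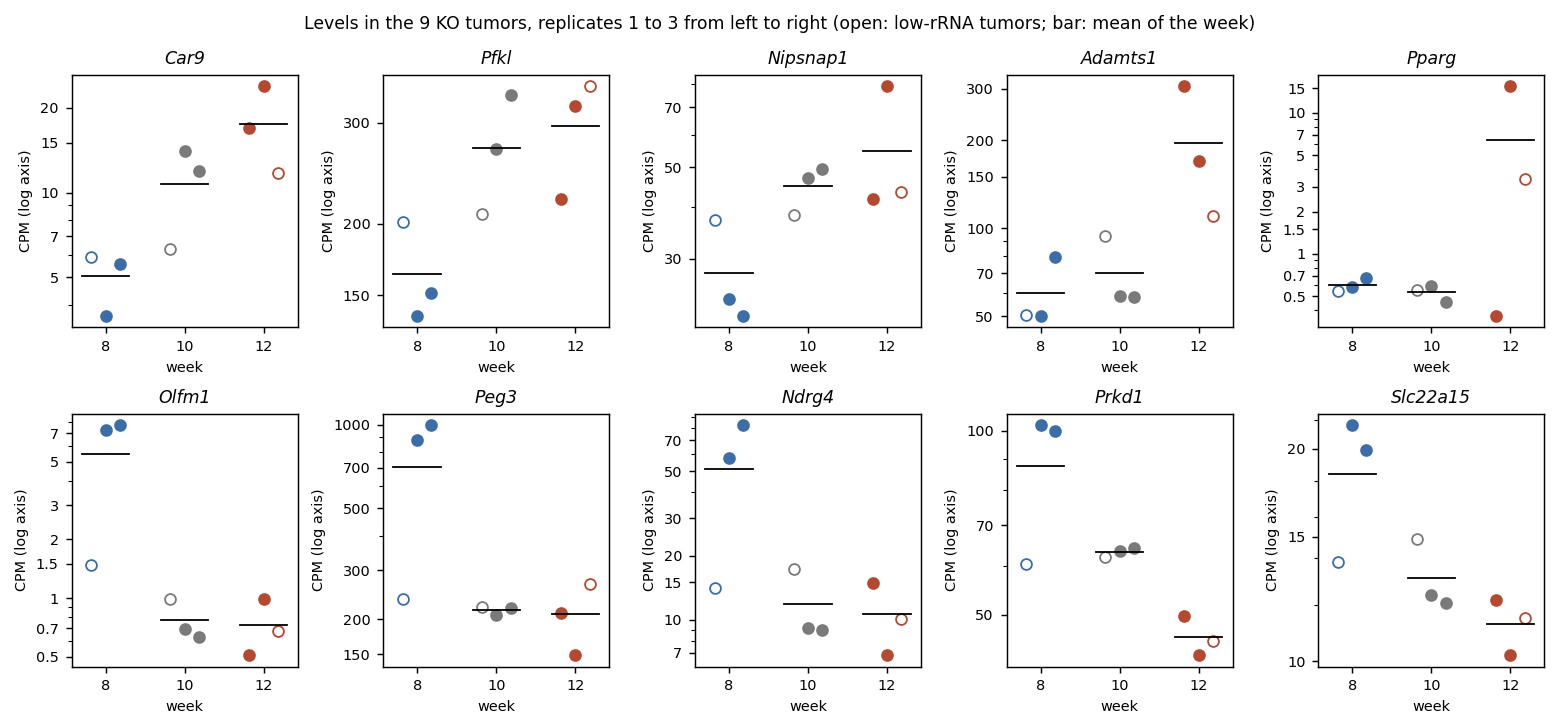
Levels of 10 genes in the 9 KO tumors by week (CPM, log axis; replicates 1 to 3 from left to right, open points for tumors of low rRNA share, bars for the mean of 3 tumors). In Olfm1, Peg3 and Ndrg4 the tumor 8-1 lies near weeks 10 and 12, and in Pparg the tumor 12-1 lies below week 8.

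Set against the rRNA share, the 20 genes gave these values. With log10 of the rRNA share as a covariate all 20 kept their direction, and the adjusted p in edgeR ran from 0.288 to 0.455. Between the low-rRNA tumors of week 12 and week 8, 1 library each and so without a test, 17 of 20 had the direction of the full comparison. The exceptions were Peg3 (log2 difference 0.19), Klrg2 (0.23) and Slco4a1 (0.13). In the 14 genes whose weeks did not overlap, the direction within this pair was fixed in advance. Only the 6 genes with overlap could differ, and the exceptions were among them, so the 17 are no check on rRNA share. Olfm1, Slc22a15 and Prkd1 kept a lower value at week 12 in that pair (-0.74, -0.25 and -0.41).

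Among lncRNA and clone-named genes, named by the same rule with 5 in each direction, none was a DEG in edgeR with all libraries. DESeq2 called 8 of the 10, all but AA986860 and Gm47015, the second without an adjusted p, and edgeR without replicate 1 of week 8 called 4, which were E130311K13Rik (adjusted p = 0.0968), Gm43333 (0.05), A330023F24Rik (0.0304) and 3830432H09Rik (0.0298). C130071C03Rik (GRCm38 chr13:83721381-83884194, plus strand, a lincRNA) was at 0.0476, 0.168 and 0.121 CPM at week 8 and at 0.146, 9.1 and 9.01 CPM at week 12 (log2 difference 5.82 ± 1.17, adjusted p = 0.442 in edgeR and 0.00986 in DESeq2). As with Pparg, replicates 2 and 3 of week 12 were high and replicate 1 lay in the range of week 8. Gm35082, E130311K13Rik, AA986860 and Gm47015 had log2 differences of 2.04, 0.91, 0.78 and 4.32. That of Gm47015 rested on replicate 2 of week 12 at 6.4 CPM, with 0.233 and 0.375 CPM in the other 2 tumors of that week and 0.0357 to 0.252 CPM at week 8, with overlap.

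Gm43333 (GRCm38 chr5:104070064-104072325, minus strand) was at 40.7, 60.9 and 0.506 CPM at week 8, at 9.1, 0.0512 and 0.0287 CPM at week 10 and at 0.0437, 0 and 0.0694 CPM at week 12, so 3 of the 9 mice held most of its reads. Gm45315, a processed pseudogene, was at 9.27, 13.5 and 6.03 CPM at week 8, at 0.0412, 7.45 and 18.2 CPM at week 10 and between 0.0416 and 0.0437 CPM at week 12, and was present or near absent from mouse to mouse. Reads of such pseudogenes can be split with their parent genes in counting. A330023F24Rik, 3830432H09Rik and Gm43982 had log2 differences of -1.15, -1.43 and -1.16. Gm50337, the lncRNA that the study followed, was at 0.856, 0.945 and 1.23 CPM at week 8 and at 0.306, 0.422 and 0.985 CPM at week 12 (-0.81 ± 0.4, adjusted p = 0.637). For Gm50337 the log2 difference was -1.58 without the low-rRNA tumors (adjusted p = 0.182 in edgeR) and 0.13, of opposite sign, between the low-rRNA tumors.

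Cell cycle genes were higher at week 12 in median, and none passed the test. All 40 genes of the G2/M list and all 40 of the S phase list had positive log2 differences, with medians of 0.77 and 0.53 against -0.1 over all genes tested and 0.03 over genes at 1 CPM or more. An unadjusted p under 0.05 was found for 1 of the 40 G2/M genes and 3 of the 40 S phase genes, beside 2.73% of all genes. In 6 and 2 of them the weeks did not overlap, beside 3.58% of all genes. Mki67, the proliferation antigen, was at 159, 116 and 114 CPM at week 8, at 178, 162 and 194 CPM at week 10 and at 303, 213 and 161 CPM at week 12. Ccnb1, cyclin B1 of mitotic entry, was at 67.5, 37.1 and 32.3 CPM at week 8 and at 110, 74.6 and 65.2 CPM at week 12 (0.87 ± 0.58, adjusted p = 0.66).

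Cdk1, the mitotic kinase, was at 78.6, 42.8 and 40.6 CPM at week 8 and at 138, 75.7 and 63.6 CPM at week 12, with overlap, and its log2 difference was 0.77 ± 0.55. Ccna2 (0.81 ± 0.56) and Ccnb2 (0.92 ± 0.51) had values of the same size. Between the low-rRNA tumors the log2 differences of Cdk1, Ccna2, Ccnb1 and Ccnb2 were -0.3, -0.18, -0.05 and -0.09. The list medians were 1.16 and 0.73 without replicate 1 of week 8, without the low-rRNA tumors 1.33 and 0.9, and without replicate 1 of week 12, the tumor with the highest levels, 0.48 and 0.26. None of the 80 genes was a DEG in edgeR in the first 2 of these fits.

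Pttg1, the securin that holds chromatid cohesion, had the lowest p of the G2/M list (log2 difference 1 ± 0.41), and Rfc4, a clamp loader subunit, that of the S phase list (0.64 ± 0.24). In the list of cyclins and CDK inhibitors, Cdkn2a, which encodes the inhibitor p16 and the p53 activator p19Arf, was at 0.119, 0.273 and 0.217 CPM at week 8, at 0.165, 1.59 and 0.316 CPM at week 10 and at 1.08, 2.77 and 0.652 CPM at week 12. It was above week 8 in every tumor of week 12, and its log2 difference of 2.9 ± 0.85 passed in DESeq2 (adjusted p = 0.0661) and not in edgeR (adjusted p = 0.512). Ccnd2 was lower (-1.2 ± 0.46, adjusted p = 0.626), and Ccnd1 was at 162 to 345 CPM at week 12 with overlap (0.59 ± 0.42).

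Beside Car9 and Pfkl, the glycolysis and hypoxia list had few large differences. Its 24 symbols matched 25 tested rows, of which 6 had an unadjusted p under 0.05 and a higher level at week 12 and 1 a lower level, the median log2 difference was 0.15, and 2 were DEGs in DESeq2, beside 2.73% of all genes higher and 5.15% lower at that p. The median was 0.25 without replicate 1 of week 8, and Car9 and Pfkl were the DEGs of the list in edgeR. Without the low-rRNA tumors the median was 0.27, with 1 DEG higher and 1 lower at week 12 in edgeR. Ldha, lactate dehydrogenase A, was at 662, 508 and 529 CPM at week 8 and at 718, 806 and 686 CPM at week 12 (0.38 ± 0.16), without overlap. Gpi1, phosphoglucose isomerase, was at 249, 205 and 219 CPM and at 263, 272 and 272 CPM (0.26 ± 0.11). Pfkp, the platelet type of phosphofructokinase, went the other way, at 151, 139 and 167 CPM and at 126, 86.1 and 118 CPM (-0.46 ± 0.2), and Vegfa, a hypoxia target that drives vessel growth, was at 92, 99.3 and 98.8 CPM and at 88, 82.3 and 85.3 CPM (-0.18 ± 0.19).

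The fatty acid oxidation list held 6 of 28 genes with an unadjusted p under 0.05 and a higher level at week 12 and 1 with a lower level, beside 2.73% and 5.15% of all genes, and its median was 0.17. In edgeR without replicate 1 of week 8 Cpt2, Hadh and Decr1 were DEGs, all higher at week 12 (adjusted p = 0.0648, 0.0995 and 0.0911), and without the low-rRNA tumors none was. Pparg was its only DEG in DESeq2. Cpt2, which frees fatty acids from carnitine inside mitochondria, was at 21.3, 17.2 and 15.5 CPM at week 8 and at 23.7, 28.3 and 26.2 CPM at week 12 (0.53 ± 0.15), and Hadh, a dehydrogenase of the same pathway, at 44.4, 33 and 35.1 CPM and at 45.6, 58.8 and 49.5 CPM (0.45 ± 0.14). The lipid synthesis list had a median of -0.03, and Scd1, the desaturase that the study followed, was at 3120, 2860 and 2610 CPM at week 8 and at 1330, 2190 and 3330 CPM at week 12 (-0.33 ± 0.31, adjusted p = 0.741). In the cholesterol synthesis list 22 of 24 genes had negative values with a median of -0.22, none passed, and Lss, lanosterol synthase, had the lowest p (-0.46 ± 0.21).

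Myoepithelial genes were lower at week 12 in median, by -0.84 over 10 genes with 9 negative, and 3 were lower at an unadjusted p under 0.05, beside 5.15% of all genes. Tagln, an actin-binding protein of smooth muscle, was at 653, 217 and 160 CPM at week 8, at 332, 93.5 and 63.3 CPM at week 10 and at 79.7, 44.4 and 211 CPM at week 12 (-1.62 ± 0.67, adjusted p = 0.628). Acta2, smooth muscle actin, was at 1310, 454 and 299 CPM and at 175, 147 and 497 CPM (-1.33 ± 0.62). In each week the low-rRNA tumor held the highest Tagln. The list median was -0.07 without replicate 1 of week 8, and without all 3 low-rRNA tumors it was -0.8. Krt14, a basal keratin, was at 910, 477 and 385 CPM and at 591, 1020 and 579 CPM (0.3 ± 0.32).

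The list of basement membrane and integrin genes had a median of -0.17 over 22 genes. Lama3 and Lamb3, laminin chains of the basement membrane, were lower in every tumor of week 12, at 423, 318 and 221 CPM against 199, 111 and 154 CPM for Lama3 (-1.05 ± 0.36) and at 487, 437 and 399 CPM against 288, 248 and 328 CPM for Lamb3 (-0.62 ± 0.25). Neither passed (adjusted p = 0.626 for Lama3). Itgb1 was at 2160, 1590 and 1620 CPM and at 2150, 1160 and 1520 CPM (-0.15 ± 0.19). The list of 26 genes of epithelial to mesenchymal transition and invasion had a median of -0.02, and its members Snai1 (0.92 ± 0.29) and Vim (0.78 ± 0.36) had adjusted p of 0.56 and 0.633. Snai1 was at 4.18, 2.29 and 1.71 CPM and at 6.66, 4.98 and 3.94 CPM, and it was a DEG in edgeR without replicate 1 of week 8 (adjusted p = 0.0525).

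The luminal list had a median of 0.22 over 10 genes and the list of hormone-receptor luminal cells -0.18 over 12, and none was a DEG in edgeR. Ltf, lactotransferrin, was at 82.8, 120 and 143 CPM at week 8, at 153, 736 and 965 CPM at week 10 and at 44.2, 671 and 720 CPM at week 12 (2.05 ± 0.68, adjusted p = 0.587), with replicate 1 of week 12 below week 8. Csn1s1, a casein, was at 10.4, 9.18 and 11.6 CPM, then 10.5, 46.7 and 111 CPM, then 27, 22.7 and 111 CPM (2.37 ± 0.79, adjusted p = 0.587), without overlap between weeks 12 and 8. The milk and alveolar list had a median of 0.24, with 4 of 18 genes at an unadjusted p under 0.05, all higher, beside 2.73% of all genes. Its median was 0.01 without the low-rRNA tumors.

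Esr1, the estrogen receptor, was at 3.1, 3 and 3.18 CPM at week 8 and at 2.52, 12.2 and 3.84 CPM at week 12 (0.99 ± 0.5), and Pgr, the progesterone receptor, stayed at or under 1.49 CPM in all 9 tumors (-0.73 ± 0.8). Tbx3 was at 2.97, 7.27 and 4.03 CPM and at 0.846, 0.612 and 2.44 CPM (-1.84 ± 0.58, adjusted p = 0.548) and Wnt4, a progesterone target, at 4.47, 3.78 and 2.94 CPM and at 1.56, 2.26 and 2.35 CPM (-0.87 ± 0.35). Areg, an EGFR ligand of the same list, was at 11.9, 4.98 and 5.69 CPM and at 20.6, 15.5 and 12.9 CPM (1.11 ± 0.68). Erbb2 differed by -0.03 ± 0.13. Spry1, a feedback inhibitor induced by ERK signalling, was at 15.4, 15.7 and 21 CPM and at 26, 32.8 and 27 CPM (0.72 ± 0.21, adjusted p = 0.486 in edgeR and 0.106 in DESeq2).

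Interferon genes followed single tumors. The mean log2 CPM of the 25 genes, relative to its mean over the 9 tumors, was 1.02, -1.24 and -1.03 at week 8, 1.64, -0.34 and 0.63 at week 10 and -0.72, -0.27 and 0.31 at week 12. The median log2 difference between weeks 12 and 8 was -0.26 with all tumors, 1.17 without replicate 1 of week 8 and 0.84 without the 3 low-rRNA tumors, so its sign changed with that tumor. Irf1 was the DEG of the list in edgeR without it (log2 difference 0.68, adjusted p = 0.0509). Usp18, an interferon-induced protease, was at 18.5, 0.819 and 1.01 CPM at week 8 and at 0.919, 1.77 and 6.72 CPM at week 12. The highest means of weeks 8 and 10 and of week 12 were all in the tumors of low rRNA share.

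**Figure D4:**
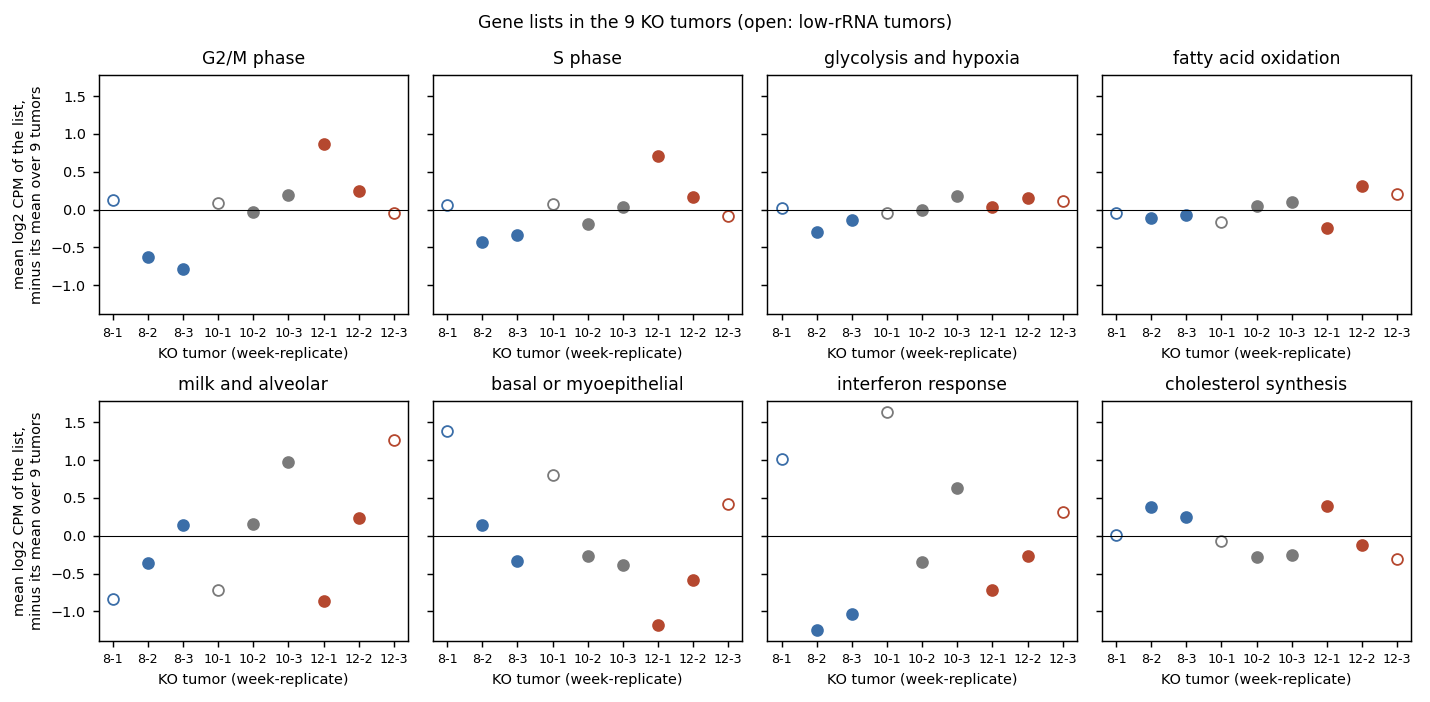
Mean log2 CPM of 8 gene lists in each KO tumor, relative to the mean of the list over the 9 tumors (tumors named by week and replicate, open points for low rRNA share). The G2/M list is lowest in 8-2 and 8-3 (-0.63 and -0.79) and highest in 12-1 (0.87), and the interferon list is highest in 10-1 (1.64) and 8-1 (1.02).

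The other lists gave medians within 0.3 of 0 and no DEG in edgeR with all tumors. They were apoptosis (0.05 over 30 genes), MHC and antigen presentation (0.29 over 16), chemokines and acute phase proteins (0.2 over 26), the integrated stress response (-0.16 over 22), heat shock and unfolded proteins (0.16 over 18), immediate early genes (0.11 over 19), ErbB and ERK output (0.11 over 22), Wnt (-0.15 over 29), Notch (0.09 over 18), PTHrP and its receptor (0.07 over 5) and imprinted growth genes (-0.11 over 16). Members with the lowest p in one direction were Casp8 (0.41 ± 0.18), Psmb9 (0.66 ± 0.49) and Tapbp (-0.28 ± 0.16) of the MHC list, Cxcl14 (-1.05 ± 0.35) beside Ltf of the acute phase list, Atf5 (-0.84 ± 0.3), Hspa1b (-0.95 ± 0.31), Btg2 (0.38 ± 0.26), Sfrp1 (0.93 ± 0.39) beside Wnt4 of the Wnt list, and Notch4 (0.9 ± 0.36). In the imprinted list 5 of 16 genes were lower and 1 higher at an unadjusted p under 0.05, beside 5.15% and 2.73% of all genes. Hspa1b, an inducible heat shock protein, was at 48.3, 119 and 163 CPM at week 8 and at 43.9, 49.4 and 77.5 CPM at week 12, again high in replicates 2 and 3 of week 8.

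Leaving out single tumors moved several list medians. The median without replicate 1 of week 8 was 0.57 for MHC and antigen presentation, with Psmb9 and Psmb10 as DEGs higher at week 12, 0.5 for chemokines and acute phase proteins, 0.27 for heat shock and unfolded proteins, with Hspa1b as a DEG lower, -0.25 for the integrated stress response and -0.23 for imprinted growth genes, with Peg3 and Zim1 as DEGs lower. In the same fit it was 0.38 for fibroblast, 0.07 for skeletal muscle, -1.19 for lymphocyte and -1.22 for erythroid markers, 0.35 for luminal and -0.36 for hormone-receptor luminal genes, 0.18 for genes of epithelial to mesenchymal transition and invasion, -0.02 for basement membrane and integrins, -0.1 for lipid synthesis, 0.05 for immediate early genes and 0.16 for PTHrP and its receptor. Casp8 was the DEG of the apoptosis list in that fit. In the fit without replicate 1 of week 12 the median was 0.59 for milk and alveolar genes, -0.48 for cholesterol synthesis, -0.49 for myoepithelial genes, -0.04 for luminal genes, 0.03 for hormone-receptor luminal genes and -0.03 for chemokines and acute phase proteins.

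Week 10 was compared with both other weeks. Between week 10 and week 8 edgeR found 0 DEGs (3116 genes at an unadjusted p under 0.05, 2.72% of all higher and 5.81% lower) and DESeq2 141, which is 0.81% of its genes, 40 higher and 101 lower at week 10. Between week 12 and week 10 edgeR found 0 (1161 genes at an unadjusted p under 0.05, 1.88% higher and 1.3% lower) and DESeq2 2, Pparg and Gm6937, the second named after its values were seen. Every tumor of week 10 was above every tumor of week 8 in 5% of genes and below in 9.69%, and every tumor of week 12 was above week 10 in 3.96% and below in 2.69%. These comparisons share tumors, so the counts stand side by side only. Without replicate 1 of week 8 edgeR found 430 DEGs between weeks 10 and 8, 228 higher and 202 lower, and without the low-rRNA tumors 242.

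Of the 10 genes named between weeks 10 and 8, Olfm1 (log2 difference -2.81 ± 0.5, adjusted p = 0.263 in edgeR) and Slco4a1 (-3.32 ± 0.67, adjusted p = 0.379) had the same pattern as above. Cadm4, a cell adhesion molecule, was at 62.6, 41 and 46.5 CPM at week 8, at 71.5, 75.7 and 83.4 CPM at week 10 and at 56.1, 56.3 and 52.3 CPM at week 12 (0.62 ± 0.14 between weeks 10 and 8). It peaked at week 10, above both other weeks in every tumor. Idh2, the mitochondrial isocitrate dehydrogenase, was at 75.3, 56.7 and 51.4 CPM, then 95.3, 97.3 and 113 CPM, then 78.6, 111 and 104 CPM (0.74 ± 0.17). Ptges2 (0.66 ± 0.15), Unc119 (0.96 ± 0.23) and Plekha2 (0.88 ± 0.21) were higher at week 10, and Impact (-0.94 ± 0.19), Nyap1 (-1.96 ± 0.42) and Myo9a (-0.68 ± 0.15) lower. All 10 were DEGs in DESeq2 and in edgeR without replicate 1 of week 8.

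Between weeks 12 and 10 Pparg came out at 3.58 ± 0.76 (adjusted p = 0.966 in edgeR and 0.0224 in DESeq2). Plin4, a coat protein of lipid droplets, was at 0.746 to 1.25 CPM at week 10 and at 0.452, 10.7 and 8.15 CPM at week 12 (2.62 ± 0.69), high in the same 2 tumors as Pparg. Pcdh19 (2.03 ± 0.5), Gpc6 (0.94 ± 0.25) and Dglucy (1.02 ± 0.28) were the others higher at week 12, while Hs6st1 (-0.63 ± 0.16), Tmem140 (-0.73 ± 0.2), Ifitm3 (-1.23 ± 0.38), Tuba8 (-0.62 ± 0.19) and C1qtnf1 (-0.67 ± 0.21) were lower. Hs6st1, which sulfates heparan chains, was at 319, 464 and 460 CPM at week 10 and at 290, 242 and 273 CPM at week 12. None of these 9 other genes passed in DESeq2.

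The change from week 8 to week 12 in KO tumors was compared with the change from week 6 to week 10 in WT tumors, the earliest and latest WT ages with 3 tumors. For the difference of these changes edgeR found 0 DEGs (3325 genes at an unadjusted p under 0.05, 3.53% higher and 5.57% lower) and DESeq2 12, or 0.0615% of its genes. Without the 3 low-rRNA tumors edgeR found 55 and DESeq2 1388, so this count rests on the tumors kept. Adamts1 had the largest difference by p, 2.97 ± 0.57 (adjusted p = 0.548 in edgeR and 0.00717 in DESeq2). It was at 146, 247 and 188 CPM in WT tumors of week 6 and at 42.1, 127 and 72.4 CPM at week 10, so it was lower in every later WT tumor and higher in every later KO tumor. Calcb, a calcitonin gene-related peptide, had a difference of 3.59 ± 0.73 (adjusted p = 0.00717 in DESeq2), with 1.09 to 6.02 CPM in WT tumors of week 6 and 0.269 to 0.496 CPM at week 10, while KO tumors overlapped between weeks. Mmp10, a stromelysin, had 2.73 ± 0.62, with WT tumors at fewer CPM later (11.3 to 32.8 CPM, then 2.23 to 4.42 CPM).

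Jpt1 (0.89 ± 0.21), also higher in the KO change, passed in DESeq2. On the lower side Ampd3 (-1.29 ± 0.29), Klf3 (-0.6 ± 0.14), Ttn (-3.09 ± 0.73) and Chpt1 (-1.87 ± 0.46) passed in DESeq2 and Madd (-0.76 ± 0.19) did not. In KO tumors alone their log2 differences between weeks 12 and 8 were -0.79, -0.26, -1.69, -1.04 and -0.51, in this order. Between the low-rRNA KO tumors, 1 library each, these were 0.02, 0.1, 0.17, 0.26 and 0. Ampd3, a deaminase of AMP, was at 38.6, 64.3 and 68.9 CPM in KO tumors of week 8 and at 31.8, 28.2 and 39.1 CPM at week 12, against 23.6 to 27.8 CPM and 33.8 to 38.7 CPM in WT tumors. Without replicate 1 of week 8 edgeR found 31 DEGs and without replicate 3 of the WT tumors of week 10 it found 33. KO and WT tumors were of different ages, and stage and age cannot be told apart in this comparison.

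Car9, Pfkl, Frk and Cdr2l were higher in every later WT tumor than in every earlier one, and of the 10 genes lower in KO tumors Slc7a8, Peg3, Slc22a15 and Slco4a1 were lower in every later WT tumor. In KO tumors Frk, Peg3 and Slco4a1 overlapped between weeks 12 and 8. Over all genes 6.15% and 5.17% were higher or lower without overlap in WT tumors.

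Against the KO glands, which had no PyMT, the difference of changes between weeks 8 and 12 gave 0 DEGs in edgeR (1316 genes at an unadjusted p under 0.05, 1.93% higher and 1.67% lower) and 2 in DESeq2, Plin4 and Trp53inp1 (0.00548% of genes). Plin4 had a difference of 6.06 ± 1.16 (adjusted p = 0.35 in edgeR and 0.00101 in DESeq2). In glands it was at 5.95 to 7.94 CPM at week 8 and 0.0492 to 0.748 CPM at week 12, lower later, while the tumors ran from 0.975 to 2.08 CPM at week 8 and from 0.452 to 10.7 CPM at week 12. Trp53inp1, a p53-induced regulator of autophagy, had 1.51 ± 0.29, with KO tumors at 122, 130 and 125 CPM and then 123, 156 and 149 CPM and glands at 140 to 174 CPM and then 57.5 to 67.1 CPM. The difference of changes was also positive for Btn1a1 (1.73 ± 0.35), Pgpep1 (0.83 ± 0.18) and Cldn34c1 (1.84 ± 0.45), in which the glands of week 12 lay below those of week 8, and negative for Acap1 (-2.78 ± 0.72), Nat8l (-2.59 ± 0.68), Ahrr (-3.75 ± 1.09) and Nrarp (-1.54 ± 0.45). None of these 7 passed in DESeq2 (adjusted p = 0.111 for Btn1a1, the lowest). Btn1a1, a milk fat globule protein, was at 33.5 to 51 CPM in tumors of week 8 and 37.7 to 45.6 CPM at week 12, and in glands at 46.7 to 53.1 CPM and then 14.2 to 15.8 CPM. The glands were 2 mice per week.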

How the data were processed

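Total RNA of sorted GFP+ cells was depleted of rRNA and sequenced as stranded paired-end libraries. The authors aligned the reads with HISAT to GRCm38 and Gencode gene models, used Picard 1.128 against duplicates and HTSeq for counting, and the deposited table of raw counts was used here. Whether HTSeq used strand is not given in the sources used here. The deposited normalized table was not used. Reporter and transgene rows (0.0778% of reads) entered neither library sizes nor tests. The 36527 genes whose reads over all 33 libraries came to 10 or more were fitted in edgeR 4.0.16 (glmQLFit, glmQLFTest) with TMM normalization and 1 coefficient per genotype, tissue and age, and p was adjusted by the Benjamini-Hochberg method over all genes. DEGs had a fold change over 1.5 and an adjusted p under 0.1. DESeq2 1.42.0 was an alternative. Scripts were tested on simulated data. CPM are counts scaled to the TMM library size. Gene lists (33, and 4 chosen after values were seen) were described by counts and medians without a test. Named genes were the 10 with the lowest p in each direction between weeks 12 and 8 at 1 CPM or more and a fold change over 1.5, places not filled by DEGs being filled by the next p, 5 lncRNA or clone-named genes and 5 genes per direction in other comparisons, the lowest p of each list and a few genes of the study. Some genes that this rule names are not reported here. The members, lists and tests were chosen with earlier results of these data known. Replicates are separate mice. Replicate numbers, which the labels tie to no litter or day, deviated together between weeks 8 and 10 (r = 0.57, 0.57 and 0.33). Unlike numbers 2 and 3 did so too (0.32 and 0.29). At the depths given a gene with 0 reads can have up to 3 expected reads. Coordinates are from Gencode vM21 (GRCm38), with all 156 named identifiers matched, and promoters from RefSeq (GRCm38.p6).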

Additional observations from a re-analysis of the deposited data

Results flagged for a closer look

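Adamts1 was flagged because every KO tumor of week 12 lay above every KO tumor of week 8 while every WT tumor of week 10 lay below every WT tumor of week 6. The log2 difference between the 2 changes was 2.97, with an adjusted p of 0.548 in edgeR and 0.00717 in DESeq2, so with all libraries the test of the difference passed in DESeq2 only. In edgeR it passed without the 3 low-rRNA tumors (adjusted p = 0.0531) and without replicate 3 of the KO tumors of week 12 (0.0908). It did not pass in edgeR without replicate 1 of the KO tumors of week 8 (0.115). Cd3g, a T cell receptor subunit, was flagged for the opposite pattern at a log2 difference of -5.31 (adjusted p = 0.548 in edgeR). It had 8, 3 and 2 reads in KO tumors of week 8, 0, 1 and 1 at week 12, 1, 0 and 0 in WT tumors of week 6 and 3, 1 and 4 at week 10, all near the 3 reads that a count of 0 allows. Only named genes were screened. Over all genes tested 150 were without overlap in opposite directions in KO and WT tumors and 228 in the same direction. Samples far from their group were not screened, since every group of KO tumors had 3 mice.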

How the results depend on the processing

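With edgeR on all libraries each of the 5 comparisons gave 0 DEGs, and with DESeq2 size factors, a stricter filter, the rRNA covariate or rRNA genes left out it also gave 0. The counts below are for weeks 12 against 8, 10 against 8, 12 against 10, KO against WT and tumor against gland, in this order. DESeq2 gave 125, 141, 2, 12 and 2, and no filter on low counts gave 176, 173, 17, 39 and 12. With only the groups compared weeks 12 and 8 gave 1 DEG (Gm45315). Without the 3 low-rRNA tumors edgeR gave 169, 242, 0, 55 and 0. Leaving out 1 library gave 0 to 214, 0 to 430, 0 to 5, 0 to 33 and 0 to 1, with the highest counts without replicate 1 of week 8 in the first 2, without replicate 1 of week 12 in the third, without replicate 3 of the WT tumors of week 10 in the fourth and without replicate 1 of week 12 or 1 KO gland of week 8 in the last. Of fits added after the data were seen, DESeq2 on the 9 KO tumors gave 281, 249 and 24, DESeq2 without the low-rRNA tumors 941, 1039, 29, 1388 and 4, and edgeR without replicate 1 of weeks 8 and 12 156, 483, 5, 1 and 1. The causes were not tested.

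The replicate numbers of weeks 8 and 12 (r = -0.05, 0.27 and -0.19 between same-numbered tumors) and of weeks 10 and 12 (0.1, 0.49 and -0.2) share only a number. Those of weeks 8 and 10 deviated together (0.57, 0.57 and 0.33), with both replicates 1 of low rRNA share. Replicates 2 and 3 of these weeks also deviated together across unlike numbers (0.32 and 0.29). A replicate 1 with a replicate 2 or 3 had r from -0.56 to -0.39. With the replicate block all 5 comparisons gave 0 DEGs.

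Without the 3 low-rRNA tumors list medians moved to -0.49 (hormone-receptor luminal), 0.49 (luminal), -2.05 (adipocyte), -2.34 (lymphocyte), -0.94 (erythroid), -1.57 (neutrophil), 1.33 (G2/M) and 0.9 (S phase), each by more than 1 SD between replicates, and within that spread to 0.84 (interferon), 0.46 (fibroblast) and 0.01 (milk and alveolar). Of 143 gene values under 2756 alternatives 2717 kept their direction and 39, in 18 genes, did not. Without the low-rRNA tumors these were Cd2 (-0.22 in edgeR and DESeq2), Hba-a1 (0 in both), Elane (-1.57 and -1.67), Usp18 (0.54 in both) and Itgb1 (0.05 and 0.04). Without replicate 1 of weeks 8 and 12 they were Postn (0.09), Flt1 (-0.09), Itgb6 (-0.03), Pmvk (-0.09), Usp18 (2.23), Scd1 (0.01) and Erbb2 (0.02). Over the fits that leave out 1 library, or replicate 1 of both weeks, the genes that changed sign ranged from -0.52 to 0.04 (Xdh), -0.31 to 0.01 (Cldn3), -0.01 to 0.89 (Krt14), -1.68 to 0.09 (Postn), -0.11 to 1.52 (Cx3cr1), -0.71 to 2.08 (Cd2), -0.09 to 0.83 (Flt1), 0 to 2.16 (Hba-a1), -0.91 to 3.83 (Elane), -0.26 to 0.87 (Itgb6), -0.09 to 0.15 (Pmvk), -2.37 to 2.23 (Usp18), -2.66 to 1.68 (Casr), -0.09 to 0.22 (Pthlh), -0.71 to 0.01 (Scd1), -0.1 to 0.07 (Erbb2), -0.41 to 0.04 (Itgb1) and -0.01 to 0.47 (Krt8). Genes under 1 CPM rest on few reads at these depths.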

Other observations

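Further groups of genes (4) were put together after their values were seen, and their counts are descriptions only. Of 49 lysosome genes 19 had an unadjusted p under 0.05 and a lower level at week 12, with a median log2 difference of -0.32, and 10 were DEGs in edgeR without replicate 1 of week 8, all lower. Over all genes 5.15% were lower at that p and 0.329% were DEGs lower in that fit. The mean log2 CPM of the list, relative to its mean over the 9 tumors, was highest in replicates 2 and 3 of week 8 (0.28 and 0.42), which also had the highest macrophage marker sums (16.6 and 17 CPM) and rRNA and mitochondrial shares of the 9 tumors, and the part of these in the result was not tested. Lamp1, the main membrane protein of lysosomes, was at 658, 900 and 969 CPM at week 8, at 662, 559 and 681 CPM at week 10 and at 579, 483 and 664 CPM at week 12, and Tpp1, a lysosomal peptidase, at 77.1, 147 and 132 CPM and at 70.1, 68.7 and 84 CPM in weeks 8 and 12. Gpnmb, a membrane glycoprotein of lysosome-rich cells, was at 60.9 CPM in replicate 3 of week 8 and at or under 6.55 CPM in the other 8 tumors.

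Genes of the response to hypertonic medium were high in the same 2 tumors, with 5 of 8 lower at week 12 at an unadjusted p under 0.05, against the same 5.15%. Slc5a3, which imports myo-inositol, was at 129, 637 and 572 CPM at week 8 and at 83.1, 141 and 190 CPM at week 12. Akr1b3, which makes sorbitol, was at 60.4, 219 and 194 CPM and at 80.6, 62.6 and 45.1 CPM. Slc5a3 lies within Mrps6 on the same strand, and Mrps6 had 22.5, 69.8 and 64.4 CPM at week 8. How the reads of the shared part were divided between the genes was not tested, so their levels may not be separate.

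Of 4 genes of the Peg3 domain 3, Peg3, Usp29 and Zim1, were lower at week 12 at an unadjusted p under 0.05, against 5.15% of all genes, and Zfp264 was not (log2 difference -0.51 ± 1.07). Usp29 was at 2.16, 7.37 and 8.8 CPM at week 8 and at 2.86, 0.908 and 1.58 CPM at week 12, and Zim1 at 0.523, 2.9 and 3.71 CPM and at 0.248, 0.612 and 0.958 CPM. In the other direction, Has2, a hyaluronan synthase, was at 169, 32.3 and 24.5 CPM at week 8 and at 150, 180 and 106 CPM at week 12, Timp1, an inhibitor of metalloproteases, at 121, 30.1 and 25.2 CPM and at 72.2, 103 and 69.9 CPM, and Gja1, connexin 43, at 266, 115 and 102 CPM and at 345, 309 and 231 CPM. Without replicate 1 of week 8 Has2, Timp1 and Gja1 had adjusted p of 0.00462, 0.00462 and 0.00159 in edgeR, at log2 differences of 2.35, 1.56 and 1.44. With all libraries the adjusted p was 0.637, 0.694 and 0.477 at log2 differences of 0.94, 0.47 and 0.87, and between the low-rRNA tumors the differences ran the other way, at -0.67, -0.79 and -0.2.

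In 2 tumors of week 12 other genes were high together with Pparg. Acaa1b, a peroxisomal thiolase, was at 2.04, 13.7 and 13.4 CPM at week 12 and at or under 4.3 CPM in the 6 earlier tumors, and Ucp3, a mitochondrial carrier, at 0.102, 1.75 and 2.22 CPM and at or under 0.362 CPM. Of 22 genes commonly listed as PPAR targets 6 had an unadjusted p under 0.05, all higher at week 12 (2.73% of all genes), and the median was 0.12. It was -0.01 without the low-rRNA tumors, and 0 of the 22 were DEGs in edgeR in that fit or without replicate 1 of week 8. In DESeq2 2 of the 22 were DEGs, both higher. The median was 0.35 without replicate 1 of week 12, the tumor in which these genes were low. Acaa1b and Ucp3 were DEGs in edgeR in that fit (adjusted p = 0.000917 and 0.0817). Plin2, a lipid droplet protein of the same list, was at 1320, 1010 and 983 CPM at week 8 and at 1170, 1020 and 1340 CPM at week 12.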
